A study of Mus musculus with 2 samples.

Results

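The insulin-like growth factor (IGF) genes described here are the ligands Igf1 and Igf2, the receptors Igf1r, Igf2r and Insr, the binding proteins Igfbp1, Igfbp2, Igfbp3 and Igfbp4, and the noncoding RNA H19. They were chosen by name and matched by symbol to Ensembl identifiers, and all 10 were found among the 43346 gene rows of the mm10 tables. RNA came from whole liver of C57BL/6J mouse embryos at 14.5 days, pooled from littermates of both sexes, and the labels list no genetic change or treatment. The series holds 1 group of 2 biological replicates, called replicate 1 and replicate 2, so the data give levels, isoforms and the difference between these libraries, and no contrast between conditions. The labels describe stranded paired-end libraries of polyadenylated RNA longer than 200 nt and do not say how many embryos or litters were pooled.

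IGF1 and IGF2 are secreted peptides that promote growth through the IGF1 receptor, a receptor tyrosine kinase. IGF2 also signals through the form of the insulin receptor that lacks exon 11. The IGF2 receptor, which is also the cation-independent mannose 6-phosphate receptor, takes IGF2 into the cell for degradation. Binding proteins hold most IGF in body fluids and set how much reaches the receptors. In the mouse Igf2 is expressed from the paternal allele, while H19 and Igf2r are expressed from the maternal allele in most tissues, and Igf2 and H19 share enhancers on chromosome 7. The fetal liver is a main site of Igf2 expression, whereas liver Igf1 rises after birth under growth hormone.

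Estimated counts on genes summed to 102720920 in replicate 1 and 65640933 in replicate 2. A gene with no count could still lie at up to 0.0292 CPM in replicate 1 and 0.0457 CPM in replicate 2, where CPM is a count adjusted for depth and the limits cover counting error only. Globin transcripts held 49.9% and 58.4% of TPM, the authors' abundance unit per transcript length and library. The hepatocyte and erythroid markers were all above 1 TPM in both libraries, as were those of endothelial, stellate, macrophage and megakaryocyte cells. Among the 5 markers of other organs, Sftpc (lung), Gkn1 (stomach) and Nppa (heart) were listed at 0 in both. Neurod1 was found in both, at 0.01 TPM (3 counts) in replicate 1 and 0.07 TPM (16 counts) in replicate 2. Ins1 was found in replicate 1 only, at 0.03 TPM (3 counts). The 5 stellate and mesenchymal markers summed to 81.4 TPM in replicate 1 and 53.9 TPM in replicate 2, and the 5 hepatocyte markers to 21315 and 17190 TPM. Among the stellate and mesenchymal markers, Col1a1, Col3a1 and Dcn were lower in replicate 2. Pdgfrb (2.06 and 2.07 TPM) and Des (1.09 and 1.08 TPM) hardly differed. Of the hepatocyte markers, Alb, Afp and Ttr were lower in replicate 2, while Apoa2 (2740 and 3134 TPM) and Hnf4a (22.0 and 23.0 TPM) were higher there. The part of these cell types in any difference below was not tested. In whole tissue, fewer cells of a type and less RNA per cell cannot be told apart.

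The sequences that bear on the Igf2 results are those just before the 5′ ends of its transcripts, because Igf2 starts from several promoters, each with its own leader exon spliced to the same downstream exon. The leaders are numbered here 1 to 5 by the length of the intron between leader and shared exon. The 100 bases before the annotated 5′ end (GENCODE M21) of the transcripts with leaders 1, 3 and 5 were read from RefSeq promoters (GRCm38.p6, minus strand, written 5′ to 3′). No window is shown for leaders 2 and 4. Capitals mark matches to the GC box motif GGGCGG on either strand.
Leader 1, chr7:142657497-142657596: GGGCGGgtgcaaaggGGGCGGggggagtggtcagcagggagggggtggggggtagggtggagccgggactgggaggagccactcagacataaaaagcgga
Leader 3, chr7:142661306-142661405: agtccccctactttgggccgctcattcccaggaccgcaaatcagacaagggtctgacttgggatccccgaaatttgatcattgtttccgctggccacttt
Leader 5, chr7:142666817-142666916: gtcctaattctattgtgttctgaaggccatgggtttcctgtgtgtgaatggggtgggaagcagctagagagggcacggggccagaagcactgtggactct
The window of leader 1 holds 2 matches to GGGCGG and is 69% G or C, while the windows of leaders 3 and 5 hold none and are 53% and 54% G or C. Of 32851 RefSeq mouse promoters, 24.7% hold the motif in the last 100 bases before the start, and their median G or C content is 55%. The TATA motif TATAAA, searched on both strands, was in none of the 3 windows and in 5.56% of all promoters. These matches describe letters only.

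Both Igf2 and H19 also carry a microRNA. Mir483 lies in Igf2 (chr7:142654924-142654996, minus strand) and Mir675 in H19 (chr7:142577064-142577147, minus strand), GRCm38.p6. Their mature forms are shown because the libraries, made of RNA over 200 nt, do not measure them, so that a host level says nothing of its microRNA. Capitals mark the seed, bases 2 to 8, in the RefSeq mature sequences.
miR-675-5p: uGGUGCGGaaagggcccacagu
miR-675-3p: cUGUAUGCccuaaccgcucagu
miR-483-5p: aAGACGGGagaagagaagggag
miR-483-3p: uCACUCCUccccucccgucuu
No pair of these 4 shares a seed. Both precursor genes were listed at 0 counts in both libraries, with hairpins of 73 nt (Mir483) and 84 nt (Mir675), shorter than the mean fragments of 214.2 nt in replicate 1 and 302.7 nt in replicate 2.

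H19 was the highest of the 10 genes. It is a maternally expressed noncoding RNA (ENSMUSG00000000031, mm10 chromosome 7, 142575529 to 142578143, minus strand). H19 stood at 3038 TPM in replicate 1 and 3518 TPM in replicate 2, a mean of 3278 ± 340 (SD, n = 2), and ranked 17th and 11th among all genes. Igf2 (ENSMUSG00000048583, chromosome 7, 142650766 to 142666816, minus strand) stood at 959.3 TPM in replicate 1 and 974.4 TPM in replicate 2, a mean of 967 ± 10.7, and ranked 83rd and 62nd. H19 thus exceeded Igf2 in both libraries, by 3.17-fold in replicate 1 and 3.61-fold in replicate 2, or 1.76 ± 0.13 on the log2 scale. Together they took 0.835% and 0.918% of gene counts in replicates 1 and 2.

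Igf1, the other ligand (ENSMUSG00000020053, chromosome 10, 87858265 to 87937042, plus strand), was far lower. It stood at 6.83 TPM in replicate 1 and 5.16 TPM in replicate 2, a mean of 6.00 ± 1.18. The level of Igf2 was 140.5 times that of Igf1 in replicate 1 and 188.8 times in replicate 2, a log2 ratio of 7.35 ± 0.30, and 8.19 on the authors' mm9 RPKM. Igf2 made up 99.4 ± 0.13% of the summed TPM of both ligands.

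Igf2r was the most abundant receptor transcript. Igf2r (ENSMUSG00000023830, chromosome 17, 12682406 to 12769664, minus strand) stood at 12.1 TPM in replicate 1 and 9.41 TPM in replicate 2, a mean of 10.8 ± 1.90. Insr, the insulin receptor (ENSMUSG00000005534, chromosome 8, 3122061 to 3279617, minus strand), stood at 3.18 and 2.81 TPM in replicates 1 and 2. Igf1r, the signalling receptor for both IGFs (ENSMUSG00000005533, chromosome 7, 67952827 to 68233668, plus strand), was the lowest of the 10 genes, with 1.81 and 1.54 TPM. The order Igf2r, Insr, Igf1r was the same in both libraries. The log2 ratio of Igf2r to Igf1r was 2.68 ± 0.09 and that of Insr to Igf1r 0.84 ± 0.04 (SD, n = 2), and Igf2r held 69.6 ± 1.70% of receptor TPM. The Igf2 transcript was 79.3 times as abundant as Igf2r in replicate 1 and 103.5 times in replicate 2.

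The binding proteins were led by Igfbp4 and Igfbp1. Igfbp4, which mostly inhibits IGF action until cleaved by pappalysin (ENSMUSG00000017493, chromosome 11, 99041244 to 99054392, plus strand), stood at 64.1 TPM in replicate 1 and 54.7 TPM in replicate 2. Igfbp1, a liver-made protein under insulin control in the adult (ENSMUSG00000020429, chromosome 11, 7197782 to 7202546, plus strand), stood at 46.0 and 51.1 TPM in replicates 1 and 2. Its neighbour Igfbp3, the main circulating carrier in the adult (ENSMUSG00000020427, chromosome 11, 7206086 to 7213923, minus strand), stood at 20.6 and 13.7 TPM. Igfbp2 (ENSMUSG00000039323, chromosome 1, 72824503 to 72852474, plus strand) was lowest, with 2.27 and 3.32 TPM. The shares of their summed TPM were 46.4 ± 2.56% for Igfbp4, 38.1 ± 4.94% for Igfbp1, 13.3 ± 3.08% for Igfbp3 and 2.21 ± 0.704% for Igfbp2.

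In order of mean TPM the genes ran H19, Igf2, Igfbp4, Igfbp1, Igfbp3, Igf2r, Igf1, Insr, Igfbp2 and Igf1r. Insr and Igfbp2 were the only neighbours in this order whose values overlapped between the libraries. Igfbp4 and Igfbp1 differed by 1.22-fold in their means, and Igfbp4 was higher in both libraries. With 2 libraries an exact sign test cannot pass any usual threshold, so no test was made of these orders.

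**Figure D1:**
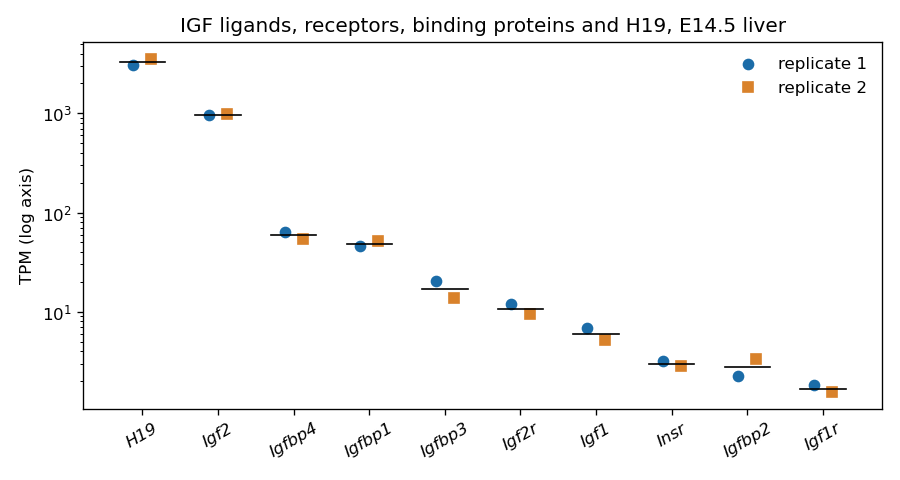
TPM of the 10 genes on a log axis, in replicate 1 (circles) and replicate 2 (squares), with a line at the mean; genes run by mean TPM. H19 and Igf2 stand apart from the other 8 genes in both libraries, and Insr and Igfbp2 are the only neighbours that overlap.

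The genes nearest in level to Igf2, by the distance of log2(TPM + 1) values over the 2 libraries, were Cd24a, Alas2 and Ubb. Cd24a stood at 968.6 TPM in replicate 1 and 964.4 TPM in replicate 2, Alas2, an enzyme of heme synthesis, at 973.3 and 943.9 TPM, and Ubb, a ubiquitin gene, at 993.9 and 1004 TPM. Those nearest to H19 were the metallothionein gene Mt1, the mitochondrial mt-Co1 and the apolipoprotein gene Apoa2. With only 2 points per gene this is likeness of level alone.

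None of the 10 genes was called different between the libraries. A call needed an adjusted p under 0.05 in a two-sided exact binomial test on rounded counts, with Benjamini-Hochberg adjustment over all 17906 genes tested, and a difference of at least 2-fold. Of all genes tested, 1497 (8.36%) were called, 828 of them higher in replicate 1 and 669 higher in replicate 2. Without the fold minimum 9 of the 10 genes passed, against 60.7% of all genes tested. This test sees counting error only, so its p-values concern these 2 libraries. The exact test of edgeR used a common spread between libraries, a coefficient of variation of 24.9% estimated from these same 2 libraries. With it, 0 of the 10 passed at an adjusted or an unadjusted p under 0.05. The differences tested thus also set the spread, so this is no independent check.

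Igf2 and Igfbp2 differed most between the libraries by counts. Igf2 had 1863 CPM in replicate 1 and 2503 CPM in replicate 2, which is a difference of -0.43 on the log2 scale (95% exact interval -0.44 to -0.42). Igfbp2 had 3.05 CPM in replicate 1 and 4.99 CPM in replicate 2, a difference of -0.71 (interval -0.94 to -0.48) at an adjusted p of 2.27e-09 in the exact test. Igfbp1 (log2 ratio -0.34), Igfbp4 (-0.22), Insr (-0.09) and H19 (-0.04) also had lower CPM in replicate 1. Igfbp3 (log2 ratio 0.36), Igf1 (0.20) and Igf2r (0.08) were higher in replicate 1 at adjusted p of 3.07e-26, 0.00488 and 9.22e-05 in the exact test. Igf1r had 9.52 CPM in replicate 1 and 9.67 CPM in replicate 2, a difference of -0.02 (interval -0.17 to 0.12) at an adjusted p of 0.822 in the exact test. The median size of the log2 difference was 0.21 for the 10 genes and 0.31 for all genes tested. Among the 11572 tested genes expressed at 1 TPM or more it was 0.25. All 10 genes lay above that level, so 0.25 is the closer comparison.

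These directions depend on the scale. The log2 TPM ratio of replicate 1 to replicate 2 was 0.23 for Igfbp4, 0.18 for Insr and 0.23 for Igf1r, opposite in sign to their count ratios. For Igf2 it was -0.02 on TPM, against -0.43 on counts. TPM differs from these counts by the length assigned to the gene in each library and by the scaling of the library. Their separate parts in these changes were not tested. With spike-in counts as library sizes the log2 ratios moved by 0.66 towards replicate 2. All 10 genes then had lower values in replicate 1, and Igf2 (log2 ratio -1.09) and Igfbp2 (-1.37) passed the call. Replicate 2 had the higher value in 92.75% of all calls made with spike-in sizes, and in 44.69% of those made with TMM sizes.

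**Figure D2:**
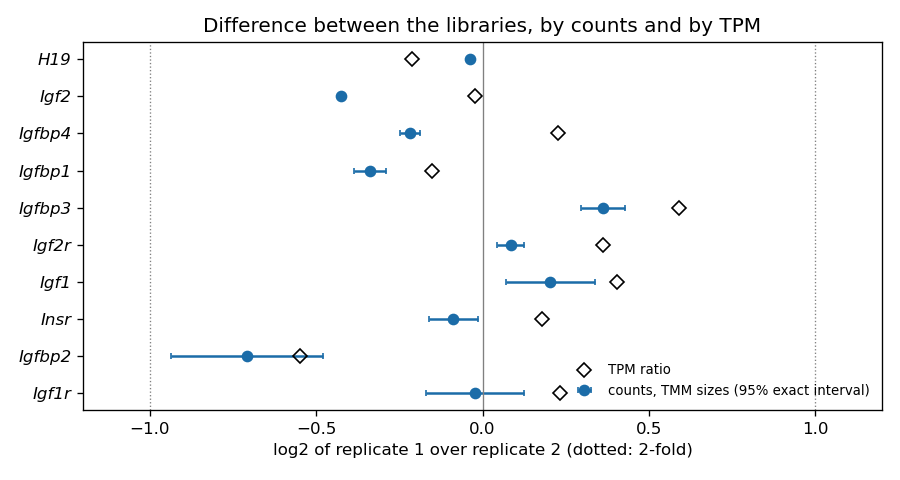
Log2 ratio of replicate 1 over replicate 2 for each gene from counts with TMM library sizes (circles, 95% exact interval) and from TPM (open diamonds); dotted lines mark 2-fold. All circles lie inside the 2-fold lines, and Igfbp4, Insr and Igf1r change sign between the scales.

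Leader use at Igf2 was read from the authors' splice junctions on mm9, which give reads of 2 replicates. It is not stated which replicate column is which library, so they are called the first and second replicate column. All leaders join a shared exon of 163 nt (mm10 chromosome 7, 142655654 to 142655816), and 5 of 7 annotated Igf2 start codons lie in it. Leader 1, the nearest to the shared exon, had 7100 and 18766 reads in the first and second columns (mm9 chromosome 7, intron 149841722 to 149843292). Leader 2 (intron of 2547 nt) had 1223 and 1707 reads, leader 3 (5115 nt) had 542 and 1126 reads, and leader 4 (5994 nt) had 973 and 1956 reads. Leader 5, the farthest at 10959 nt, had 3 reads in each column. Leader 1 thus led in both columns.

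Leader 1 held 77.4% of the 33399 reads over the annotated leader junctions, with a Wilson 95% interval from 77.0% to 77.9% that covers counting error only. Over the replicate columns its share was 72.1% and 79.7%, a mean of 75.9 ± 5.31% (SD, n = 2), so each column lay outside the interval of the summed reads. Leaders 2 and 4 each held 8.77% of the summed reads, leader 3 held 4.99%, and leader 5 held 0.0180% (interval 0.00823% to 0.0392%). The leader junctions summed to 9841 reads in the first column and 23558 in the second, while the shared intron that follows had 9503 and 9073. Leader and shared junctions thus differed far more in the second column, which gave most of the summed leader reads. Why they differed was not tested.

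Junctions outside the annotation added little to leader use. A further 15 donors joined the shared exon with 270 reads in all, 0.802% of the reads into it. One of these, 5 nt from the annotated leader 5 donor, had 23 and 34 reads in the first and second columns, more than the annotated donor. Another unannotated junction, of 511 nt, joined leader 4 to the exon of leader 3, with 184 and 303 reads. Reads of leader 3 can therefore include transcripts that began at leader 4. Downstream, an unannotated acceptor 14 nt from the annotated one had 631 reads, against 24678 at the annotated junction of that intron.

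The authors' transcript estimates on mm10, summed over protein-coding models alone, gave leader 1 less. Of the abundance assigned to such models with a leader, transcripts with leader 1 held 43.8% in replicate 1 and 58.5% in replicate 2. Transcripts with leader 4 held 22.4% and 26.1%, and those with leader 5 held 19.4% in replicate 1 and 1.99% in replicate 2. The leader 5 transcript (ENSMUST00000105935) is a model of 650 nt, and its own junction had 6 reads in both columns together. The largest single share of Igf2, 44.8% in replicate 1 and 45.1% in replicate 2, went to ENSMUST00000163148, a model of 958 nt with 2 exons. It is annotated as a processed transcript and was left out of these sums, and its exons on mm10 were not compared with the leaders. On mm9 the model of this identifier begins with leader 1, so its abundance was counted with leader 1 there and with no leader on mm10. Leader 1 was the highest leader on each of these measures.

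**Figure D3:**
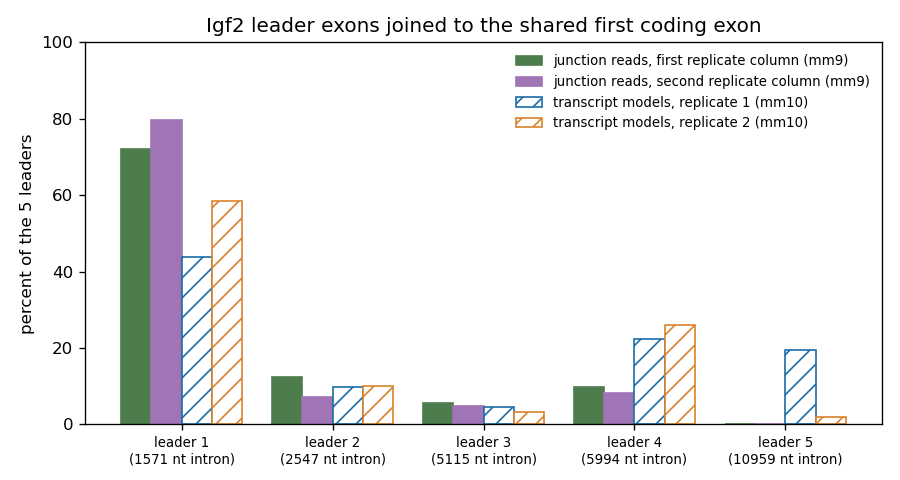
Percent of each Igf2 leader among the 5 leaders, from junction reads in the first and second replicate columns (filled bars, mm9) and from the estimates for protein-coding transcripts in replicates 1 and 2 (hatched bars, mm10). The intron length stands under each leader. Leader 1 holds 72.1% and 79.7% of junction reads, and leader 5 is visible in the transcript estimates only.

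H19 transcripts were spliced through 4 short introns of 78 to 88 nt. From the 5′ end these had 64603, 44961, 56739 and 54694 reads in the first replicate column. In the second column they had 28610, 34417, 36557 and 65973 reads. The order of the introns by reads therefore differed between the columns. The log2 ratio of the first to the second column was 1.18, 0.39, 0.63 and -0.27 along the gene.

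The H19 model percents differed widely between the libraries. The 5-exon transcript of 2286 nt (ENSMUST00000136359) was assigned 70.5% of H19 in replicate 1 and 27.8% in replicate 2. A 2-exon model of 817 nt inside it (ENSMUST00000140716) was assigned 19.3% and 38.9% in replicates 1 and 2. A further model of 1853 nt (ENSMUST00000152754) was assigned 9.58% and 32.7%. On mm9 the model of that identifier and length begins with an intron of 381 nt that had 0 reads in both columns, while the 4 introns above had 79378 reads or more. The splicing unique to this model was thus not detected. The 2-exon model shares its only intron with the 5-exon transcript, so junction reads cannot tell them apart. An unannotated acceptor 4 nt from that of the first 81-nt intron had 1416 and 719 reads.

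Igf1 showed both several junctions into its first shared exon and a cassette exon. Into its first shared exon the annotated leader with an intron of 5318 nt had 73 and 124 reads in the first and second columns, the annotated leader with an intron of 3345 nt had 27 and 36, and an unannotated junction of 5091 nt had 17 and 64. Their shares of the reads into that exon were 52.2%, 16.7% and 21.5%. An annotated intron of 1656 nt, with 2 and 23 reads, has the same donor as the unannotated junction. It leads into the exon before the 3345-nt intron. Reads of that intron can therefore include transcripts that began farther upstream, and these shares do not measure separate starts. Near its 3′ end a 52-nt exon (GRCm38 chromosome 10, 87915298 to 87915349) encodes part of the E domain, the carboxyl extension of the IGF1 precursor. Its length is not a multiple of 3, so it shifts the reading frame of the exon that follows. The exon is shown in capitals between 15 bases of its neighbours, as in ENSMUST00000105300, with the joined neighbours of ENSMUST00000095360 under it (GENCODE M21 transcripts).
Igf1 with the 52-nt exon: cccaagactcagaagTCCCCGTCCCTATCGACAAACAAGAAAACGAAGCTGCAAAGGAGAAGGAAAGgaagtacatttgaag
Igf1 without it: cccaagactcagaaggaagtacatttgaag
The junction upstream of the exon had 83 and 22 reads in the first and second columns, the downstream junction 69 and 19, and the skipping junction 76 and 24. Inclusion, the mean of the flanking junctions over itself plus skipping, was 49.1% (Wilson 95% interval 42.1% to 55.9%), with 50% and 46.1% in the columns. Both columns lay inside that interval. The transcript estimates for Igf1 were less stable, with ENSMUST00000122100 at 54.2% in replicate 1 and 18.3% in replicate 2, and ENSMUST00000126490 at 4.15% and 33.7%.

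Insr exon 11 decides between 2 forms of the insulin receptor. Form A lacks it and binds IGF2 with high affinity, and form B holds it and is the main form of adult liver. Exon 11 (chromosome 8, 3181702 to 3181737 on both mm9 and GRCm38, minus strand) is 36 nt long and keeps the reading frame. It is shown in capitals between 15 bases of exons 10 and 12, as in ENSMUST00000207100, with the skipped form of ENSMUST00000091291 under it (GENCODE M21 transcripts).
Insr with exon 11: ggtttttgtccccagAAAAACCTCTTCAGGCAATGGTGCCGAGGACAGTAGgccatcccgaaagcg
Insr without exon 11: ggtttttgtccccaggccatcccgaaagcg
The upstream junction had 45 and 18 reads in the first and second columns, the downstream junction 55 and 24, and the skipping junction 23 and 16. Inclusion was 64.5% (Wilson 95% interval 55.3% to 72.9%), with 68.5% and 56.8% in the columns, a mean of 62.6 ± 8.30% (SD, n = 2). Both columns lay inside the interval. Reads of both forms were found, and form B had more in each column. The second column had few reads and no interval of its own, so its lead of form B is not firm. The deposited mm10 transcript tables list 2 Insr models, neither with this exon, so they do not bear on it. From the authors' RPKM of the mm9 models with and without the exon the percent was 23.0%, which gives form A the larger share.

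**Figure D4:**
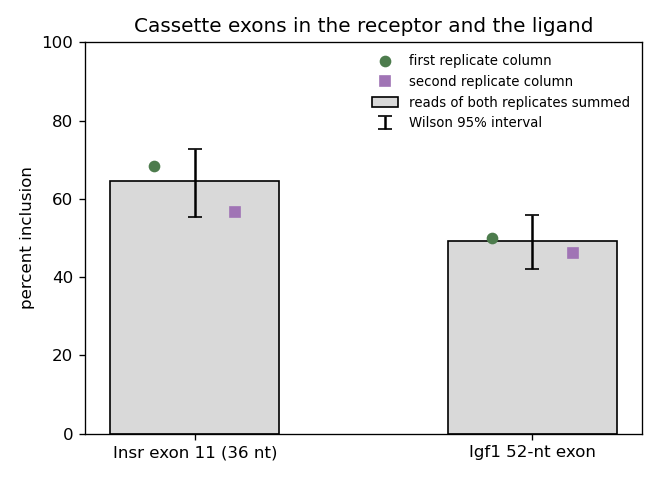
Percent inclusion of Insr exon 11 and of the Igf1 52-nt exon from junction reads summed over both replicates (bars, with Wilson 95% intervals) and in the first and second replicate columns (circles and squares). Insr exon 11 stands at 64.5% and the Igf1 exon at 49.1%.

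The receptors were read along their whole length. All 20 introns of the full-length Igf1r model, all 47 of Igf2r and all 20 of Insr had junction reads. Reads were fewer towards the 5′ end. In Igf2r the median was 124 reads over the 23 introns nearest the 5′ end and 408 over the others. In Igf1r it was 48 reads over the 10 introns nearest the 5′ end and 67.5 over the others, and in Insr, divided likewise, 83 and 114.5 reads. The difference had the same direction in each replicate column for each receptor, with Igf2r medians of 80 and 241.5 reads in the first column and 37 and 156 in the second. An unannotated Insr acceptor 3 nt from an annotated one had 12 and 7 reads, against 52 reads at the annotated junction. At Igf1r the most used unannotated junction had 5 and 7 reads in the first and second columns.

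Among the binding proteins, Igfbp1 had 724 to 1500 reads at its 3 introns and Igfbp2 had 95 to 118 at its 3 introns with reads. Igfbp3 had 618 to 1323 reads at 4 introns. Its main transcript (ENSMUST00000020702) was assigned 82.2% of the gene in replicate 1 and 82.8% in replicate 2. A short model of Igfbp4 (ENSMUST00000130530, 785 nt) was assigned 34.3% of that gene in replicate 1 and 23.2% in replicate 2. The junction from its own first exon had 12 reads in both columns together, while that of the main transcript (ENSMUST00000017637) into the same exon had 4279.

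The ratio of the replicate columns changed along several of the genes. Over the 98937 annotated junctions with at least 50 reads the median log2 ratio of the first to the second column was 0.79, with quartiles at 0.32 and 1.30. The 5th and 95th percentiles of those junctions were -0.34 and 2.15. The 4 leader junctions of Igf2 with that many reads lay between -1.40 and -0.48, and the shared introns after them at 0.07 and 0.26. Igf1 likewise had -0.76 and -0.42 at its annotated leader junctions and 1.66 to 1.92 around its cassette exon. Igfbp1 spanned 0.78 to 0.98 and Igfbp2 spanned 0.00 to 0.34. Igfbp3 spanned 0.83 to 1.60 and Igfbp4 -0.10 to 0.91. The receptors had wide ranges too, with -0.21 to 2.56 at Igf2r, -0.51 to 1.53 at Insr and -0.50 to 1.39 at Igf1r. At Igf2r the median was 0.94 over the 23 introns nearest the 5′ end and 0.52 over the others. Igf1r went the other way. Its median was 0.05 over 5 introns towards the 5′ end and 0.73 over 8 towards the 3′ end. Insr, divided likewise, had similar medians of 0.78 over 8 introns and 0.80 over 10. Only introns with at least 50 reads were counted. The receptors thus shared no direction along the gene. The balance of the columns thus varied with the junction read at Igf2, Igf1, H19 and the receptors, and many of the Igf1, Insr and Igf1r junctions had few reads. The spread over all junctions was also wide, and whether it is wider within these genes than within others was not tested.

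**Figure D5:**
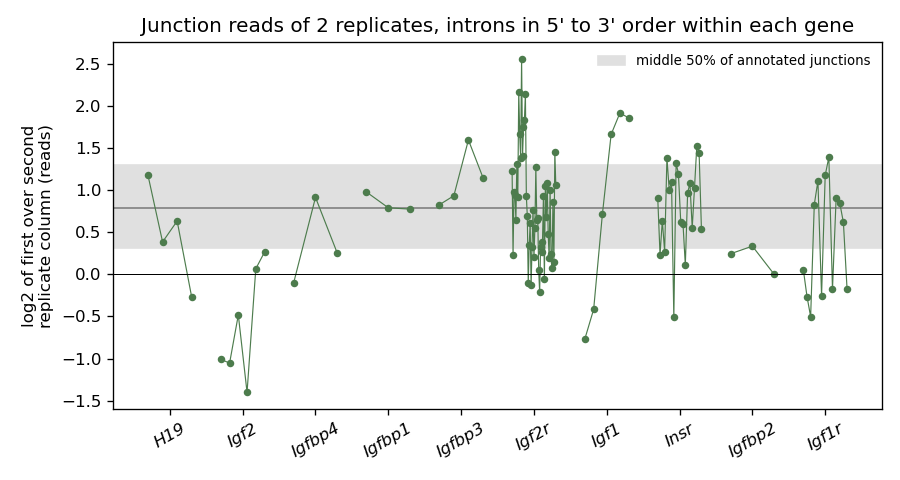
Log2 ratio of junction reads in the first over the second replicate column for annotated introns with at least 50 reads, in 5′ to 3′ order within each gene; the band marks the middle 50% of all such junctions (0.32 to 1.30). The Igf2 leader junctions lie from -1.40 to -0.48 and its shared introns at 0.07 and 0.26, all below the band.

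Of 43 further genes of the IGF pathway, 26 reached 1 TPM in both libraries. The list was drawn up for this system and its genes were not picked for how they moved. Among other ligands, Ins2 (insulin) stood at 0.13 TPM in replicate 1 and 0.39 TPM in replicate 2, and Ins1 at 0.03 TPM and listed at 0. The insulin receptor-related gene Insrr stood at 0.02 and 0.03 TPM. Igfbp7, a relative of the binding proteins, led its group at 13.8 and 8.51 TPM, and Igfals, which stabilises the circulating complex with Igfbp3, stood at 2.67 and 3.58 TPM. The proteases that free IGF from binding proteins and their inhibitors were low: none of 5 reached 1 TPM in both libraries, and Stc2, an inhibitor of pappalysin, was highest at 0.44 and 0.23 TPM, followed by Htra1 at 0.28 and 0.12 TPM.

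Signalling genes inside the cell were higher. Grb10, an imprinted adaptor that restrains insulin and IGF1 receptor signalling, stood at 88.3 TPM in replicate 1 and 78.0 TPM in replicate 2. Shc1, an adaptor of receptor tyrosine kinases, stood at 35.4 and 38.5 TPM. The growth hormone axis, which drives liver Igf1 after birth, had all 5 genes at 1 TPM or more in both libraries, led by Stat5b (11.9 and 10.5 TPM) and Jak2 (13.4 and 8.50 TPM). All 3 mRNA-binding proteins of the Igf2bp family were above 1 TPM, led by Igf2bp3 at 6.63 and 4.71 TPM and Igf2bp1 at 4.68 and 2.97 TPM. Irs4, an insulin receptor substrate, was listed at 0 TPM with 1 count in each library.

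Of the neighbours and regulators, Plagl1, an imprinted transcription factor that can activate Igf2, stood at 39.4 TPM in replicate 1 and 46.4 TPM in replicate 2, and Mrpl23, a mitochondrial ribosomal protein gene beside H19, at 53.5 and 30.2 TPM. Igf2os, transcribed antisense to Igf2, stood at 1.71 and 2.03 TPM, and Airn, antisense to Igf2r, at 3.88 and 3.94 TPM; it is not stated whether the gene counts used strand, so these pairs may share reads. Of 38 pathway genes tested, 1 was called, against 8.36% of all genes: Igfbpl1, a binding protein-like gene, at 0.03 TPM in replicate 1 and 0.69 TPM in replicate 2 (log2 count ratio -4.52, edgeR exact test adjusted p of 4.04e-08). Its counts were 11 (replicate 1) and 169 (replicate 2). None of the 38 was called higher in replicate 1.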

How the data were processed

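Estimated counts (expected counts), TPM, FPKM and, per transcript, a percent of the gene's abundance were deposited by the authors for each library on mm10 with annotation M4, per the file headers and a deposited note; shared reads are split by the estimate. A second deposited set on mm9 holds RPKM of Ensembl models and splice junctions with read counts of each replicate and an irreproducible discovery rate (IDR) score, per the file headers. The sources used here name no aligner and no quantifier. FPKM was not needed beyond a listing.

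Symbols, positions and transcript sequences are from GENCODE M21 (42462 of 43346 identifiers matched), and promoters and microRNAs from RefSeq GRCm38.p6. In the mm9 exon table all 193 exon values of the 10 genes equalled, within 1%, the sum of the transcripts holding the exon, so exons add no measurement and were not read apart. Gaps under 30 nt between exons were not taken as introns, and 1 of each pair of gene lines was used.

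Counts were rounded and compared between the libraries by a two-sided exact binomial test with TMM sizes (edgeR 4.0.16, R 4.3.3), over genes with at least 10 counts, with 0.5 added in fold changes. The quasi-likelihood test of edgeR was not used because there is 1 group. edgeR's exact test took the libraries as replicates to set the spread. DESeq2 1.42.0 gave alternative sizes. Library sizes and tests left out phiX, 26248 rows with numeric identifiers and the spike-ins, which held 2.84% of the counts of replicate 1 and 1.82% of those of replicate 2. The test was run on simulated counts for this comparison over 17899 genes. It called 99 of 100 genes with a 3-fold change, 100 of 100 with a 6-fold change and 2 without one. Those counts held counting error only, with no spread between libraries, so the 2 calls do not measure false calls in these data. Other steps used matplotlib 3.10.9, pandas 2.3.3, scipy 1.17.1 and numpy 2.4.6 under Python 3.11.15. Inclusion reads were cut to whole numbers for Wilson intervals, which like the count limits cover counting error only, since the labels name no molecular identifiers.

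The genes and lists were chosen with earlier results of these data known. All 10 genes are given. Of the pathway list, the 2 of highest mean TPM in each role are named, with those called and those at 0 in both libraries; Igf2os and Airn were added after their values were seen, as were the unannotated junctions and the Igf1 exon. For likeness of level the 3 nearest genes are named. No per-sample column was left unmatched. De novo models and contigs were not used here.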

Additional observations from a re-analysis of the deposited data

How the results depend on the processing

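Of the values compared with alternatives other than single levels, 30 kept their size and 15 moved. The 30 include the ratios without 1 replicate, which could not move, because with 2 libraries each value lies within 1 SD of their mean. The count of genes called was 3887 with spike-in sizes, 10870 without the fold minimum and 244 with edgeR's exact test, and the count of the 10 genes called was 2 with spike-in sizes and 9 without the fold minimum; DESeq2 sizes, sizes without globins, a pseudocount of 1 and no count minimum left 0 of the 10 called. On mm9 RPKM the log2 ratio was 2.18 for H19 to Igf2, 8.19 for Igf2 to Igf1 and 1.31 for Insr to Igf1r. Adding 1 to TPM gave 2.13 for Igf2r to Igf1r and 0.58 for Insr to Igf1r, and counts per full length gave 0.89 for Insr to Igf1r. Without either replicate the ratios ranged from 1.66 to 1.85 (H19 to Igf2), 7.13 to 7.56 (Igf2 to Igf1), 2.61 to 2.74 (Igf2r to Igf1r) and 0.81 to 0.87 (Insr to Igf1r). The Igf2 leader 1 share was 51.2% from mm10 percents of protein-coding transcripts and 70.1% from mm9 transcript RPKM. The mm9 value counts ENSMUST00000163148 with leader 1, and without that model it was 60.6%. Insr exon 11 inclusion was 23.0% from mm9 transcript RPKM, against 64.5% from junctions, so the form with the larger share differed. The alternatives on mm9 transcript RPKM and all donors, and those for the Igf1 exon, were chosen after seeing the data. The cause of these moves was not tested. Levels of all 10 genes moved when globin and mitochondrial genes were left out of TPM, with the order kept, and on mm9 RPKM 8 of 10 kept their rank, with Insr above Igf1. Alternatives with single junctions, all donors or an IDR under 0.1 changed no inclusion or leader share by more than the spread of the replicates. The IDR limit removed none of the junctions used, so it could not change a share. Inclusion from mm10 transcripts was not run, since no deposited mm10 model holds exon 11. No paired analysis was possible because the series has 1 group. Depth limits the junction values: the median per intron with reads was 58 reads for Igf1r, 88.5 for Insr, 94 for Igf1 and 102 for Igfbp2, and Igfbp2 had the fewest in all, 315.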
